A study of Mus musculus with 12 samples.

Results

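The carbon-irradiated primary tumour was measured on 2 of the series' 12 arrays, which compared its RNA with that of an unirradiated primary tumour in both dye orientations. Members were all non-control probes of those 2 arrays, named by gene. Of the 27670 genes or other features on the array, 15636 were measured, meaning that on each array the scanner software called the probe clearly brighter than background for the carbon RNA, the unirradiated RNA or both. The tumour was NR-S1, a mouse squamous cell carcinoma that metastasises readily, grown in the hind leg of male C3H/HeMsNrs mice (the series' design text writes the strain C3H/HeNrs). The unirradiated group was left untreated once the tumour reached 7.5 mm and was sampled 1 week later. The carbon group received 5 Gy of carbon ions on the tumour at 7.5 mm and was sampled 1 week after that. Another primary tumour, used for comparison, was given 8 Gy of gamma rays and sampled at the same time. In every group the tumour cells were isolated with laser microdissection, and their RNA was amplified linearly before labelling. The labels call each RNA clone 1 and replicate 1, and the number of animals behind it is not given in the sources used here. Each group was thus 1 RNA, a dye swap was 1 replicate measured on 2 arrays, and no difference below had a test across animals.

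Carbon ions are heavy charged particles that deposit dense energy along their tracks in tissue, and they are used to treat tumours. Interferons are secreted proteins that signal through Janus kinases and STAT transcription factors to DNA elements in the promoters of target genes, among them the interferon-stimulated response element and the gamma-activated site. Their targets include GTPases that act against intracellular pathogens, antiviral effectors, chemokines that draw T cells, and the machinery that presents antigens on MHC molecules.

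The labelled cell type was checked first. The epithelial transcription factor Trp63 had signals of 11290 and 11460 in the unirradiated RNA and of 14970 and 14310 in the carbon RNA, and 36 of 43 epithelial adhesion genes were above background on both arrays in each RNA. Of 26 keratins on the array, 17 were above background in the unirradiated RNA and 18 in the carbon RNA. Markers of other cells were also present: 25 of 31 macrophage and dendritic cell genes, 31 and 32 of 32 fibroblast and matrix genes, 19 of 20 endothelial genes, and 35 and 34 of 36 skeletal muscle genes were above background in the unirradiated and the carbon RNA respectively. In such dissected tissue, fewer cells of a type and less RNA per cell cannot be told apart. No spot was saturated, between 16 and 58 spots per array were left out as outliers, and the share of spots clearly brighter than background lay between 53.8% and 68.8% in each channel over the series.

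More genes were higher than lower after carbon ions. A gene was called where its log2 ratio of carbon over unirradiated was at least 1 in size, that is 2-fold, with the same sign on both arrays. On that rule 610 genes were higher (3.9% of those measured) and 168 were lower (1.07%). Every count of called members in a list below is to be read beside these 2 shares. With Agilent's own processed signals the counts were 939 higher and 454 lower, which moved the share of higher calls from 78.4% to 67.4%. With median centring they were 414 higher and 59 lower, a share of 87.5%. At least 4-fold higher on both arrays were 183 genes, against 10 that were at least 4-fold lower, and 22 were at least 16-fold higher. The median log2 ratio over all measured genes was 0.02, and the median SD over the 2 orientations was 0.11. This SD holds array and dye error and leaves out the spread between animals. There were 489 genes past 2-fold in 1 orientation alone and 4 past it in opposite directions. Of the 610 genes called higher, 320 were also called higher after gamma rays and 304 in an unirradiated lung metastasis of the series. Of the 168 called lower, 95 were also called lower after gamma rays and 41 in that metastasis. All these comparisons share the unirradiated primary RNA. How far the calls reflect that shared RNA and not the carbon dose was not tested. The lower and upper quartiles of the log2 ratio over all measured genes were -0.21 and 0.29. The share of all measured genes below 0 on both arrays was not worked out, so counts of list members below 0 have no such share beside them. In 34 of the genes called higher, the unirradiated RNA was above background on neither array, so their fold is a lower bound, the carbon signal against the higher of the gene's own unirradiated signal and the dimmest signal that counted as above background.

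**Figure D1:**
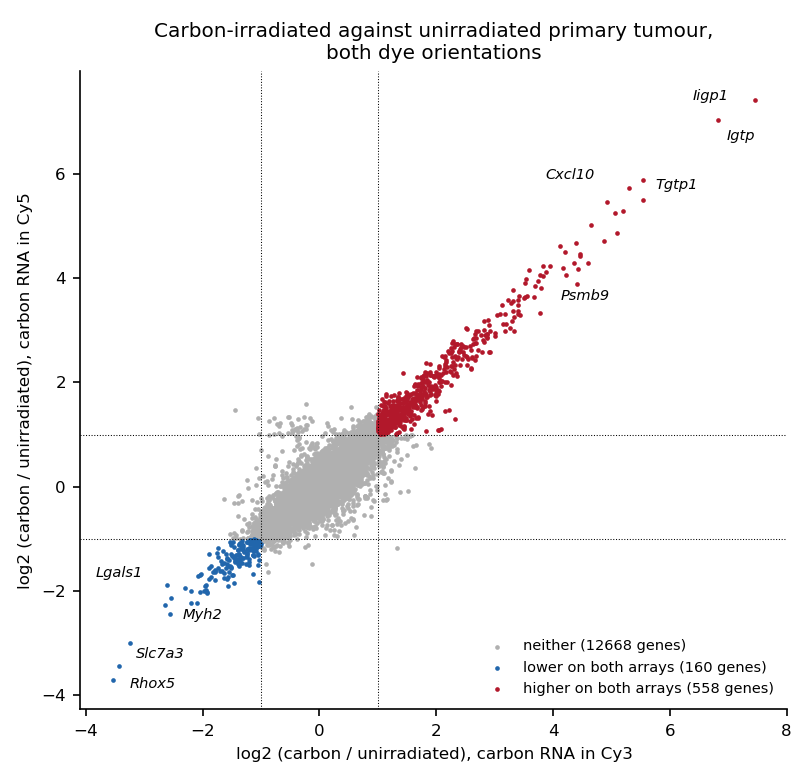
Each point is 1 of the 13386 measured genes with a RefSeq symbol, placed by its log2 ratio of carbon over unirradiated with carbon in Cy3 (horizontal) and in Cy5 (vertical); dotted lines mark a log2 ratio of 1 and -1. The 558 named genes called higher (red) reach further from 0 than the 160 called lower (blue), with Iigp1 and Igtp at the top and Rhox5 and Slc7a3 at the bottom.

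The genes furthest above the unirradiated tumour were interferon-inducible GTPases. The immunity-related GTPases, which attack the vacuoles of intracellular parasites, had 6 measured members, and all 6 were higher, with a median log2 ratio of 5.48 beside 0.02 for all measured genes. The signal of Iigp1 was 142 and 137 in the unirradiated RNA and 25080 and 23340 in the carbon RNA, a log2 ratio of 7.44 ± 0.036 (SD over the 2 arrays, as in all values that follow), or 174-fold. Igtp went from 715 and 504 to 81300 and 66530, a log2 ratio of 6.94 ± 0.15, or 122-fold. In both genes the lower carbon signal was far above the higher unirradiated one. Tgtp1 (Tgtp in the array's own naming) had a log2 ratio of 5.71 ± 0.24, and a second probe for it gave 2.98. Its near-identical copy Tgtp2 cannot be told apart by name here. Ifi47 had a log2 ratio of 5.25, Irgm2 of 4.37 and Irgm1, a regulator of the other family members, of 3.66. The other probes of Irgm1 ran from 0.22 to 4.16, so that gene's size depends on the probe.

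Guanylate-binding proteins, large GTPases that coat pathogen vacuoles and cytosolic bacteria, were higher in all 10 measured members, with a median log2 ratio of 4.15. Gbp3 had signals of 359 and 341 in the unirradiated RNA and of 16640 and 15410 in the carbon RNA, a log2 ratio of 5.52 ± 0.024. Gbp2 went from 1478 and 1171 to 27380 and 26470, a log2 ratio of 4.36 ± 0.20. Gbp5 was not above background in the unirradiated RNA, at 75 and 95, and had 1603 and 1408 in the carbon RNA, which is at least 17.8-fold. The smallest value in the list was that of the giant GTPase Gvin1, at 2.43 ± 0.23. Members of this family are alike in sequence, and the array names some by older symbols (the probe of Gbp3 is named Gbp4 in the files), so single members are less certain than the family.

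Most of these genes with a promoter window held the same short element. In RefSeq promoters of GRCm38.p6, the 250 bases before each start were searched on both strands for the core of the interferon-stimulated response element, GAAA, any pair of bases and GAAA again. All 5 guanylate-binding protein genes with a window held it (Gbp2, Gbp2b, Gbp3, Gbp5 and Gbp7), as did 4 of 5 immunity-related GTPase genes. The match is in capitals in the following windows, which read 5′ to 3′ on the gene's strand and lie at chr11:58199497-58199555 (Igtp, plus strand), chr11:58214888-58214947 (Irgm2, plus), chr11:48992289-48992348 (Tgtp1, minus), chr3:142620579-142620638 (Gbp2, plus) and chr3:142559974-142560033 (Gbp3, plus).
Igtp: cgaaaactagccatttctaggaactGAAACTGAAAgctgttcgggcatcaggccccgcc
Irgm2: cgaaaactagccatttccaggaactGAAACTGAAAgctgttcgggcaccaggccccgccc
Tgtp1: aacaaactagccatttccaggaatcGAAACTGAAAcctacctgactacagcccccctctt
Gbp2: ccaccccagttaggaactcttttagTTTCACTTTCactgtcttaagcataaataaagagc
Gbp3: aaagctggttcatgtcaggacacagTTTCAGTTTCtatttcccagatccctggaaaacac
The matches in Igtp, Irgm2 and Tgtp1 are letter for letter the same and read forward, while those in Gbp2 and Gbp3 read on the opposite strand. They end 25 bases before the start in Igtp, 55 in Irgm2, 68 in Tgtp1, 50 in Gbp2 and 36 in Gbp3. Over all measured genes with a window, 343 of 10636 (3.225%) held the element. Among genes called higher the share was 50 of 411 (12.165%), among those at least 4-fold higher it was 30 of 116 (25.862%), and among genes called lower it was 5 of 120 (4.167%). Lists with no called gene held it too, with 5 of 24 ribosomal protein genes (20.833%) and 5 of 38 genes of double-strand break repair (13.158%), while 0 of 8 MHC class II genes did. A match is a description of the letters and not a bound site.

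Antiviral effectors were higher in 28 of 41 measured genes and lower in none, with a median log2 ratio of 1.93. Ifit1, which binds viral RNA caps, had signals of 169 and 188 in the unirradiated RNA and of 4076 and 3709 in the carbon RNA, a log2 ratio of 4.45 ± 0.21. The mitochondrial interferon-inducible gene Ifi27l2a had log2 ratios of 4.92 and 5.47 on the 2 arrays and the chaperone gene Rtp4 of 5.09 and 4.87. The ubiquitin-like modifier Isg15 went from 886 and 780 to 7288 and 7690, a log2 ratio of 3.17 ± 0.18. Oasl2, of the oligoadenylate synthetase family, had 4.04, Ifi44 4.31, Usp18, which removes Isg15 from proteins, 3.50 and 3.63 on the 2 arrays, Mx2 2.95 and Mx1 2.25. Ifi44 had a second probe at 0.78. Below the call were Oas3 at 0.92 and 0.94, Adar, the RNA-editing deaminase, at 0.66 and 0.83 (further probes of these gave 1.29 and 1.57), and Ifitm3 at 0.64 and 0.82. Ifitm1, another membrane protein of that family, was the only measured member below 0 on both arrays, at -1.13 and -0.80. The upstream windows of Ifit1 and Isg15 also held the response element, at chr19:34640760-34640819 (plus strand) and chr4:156200862-156200921 (minus strand).
Ifit1: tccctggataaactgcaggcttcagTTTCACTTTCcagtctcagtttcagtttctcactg
Isg15: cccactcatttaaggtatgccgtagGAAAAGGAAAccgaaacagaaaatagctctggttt
The Ifit1 promoter held 2 matches and the Isg15 promoter 3, of which the capitals mark 1 in each.

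**Figure D2:**
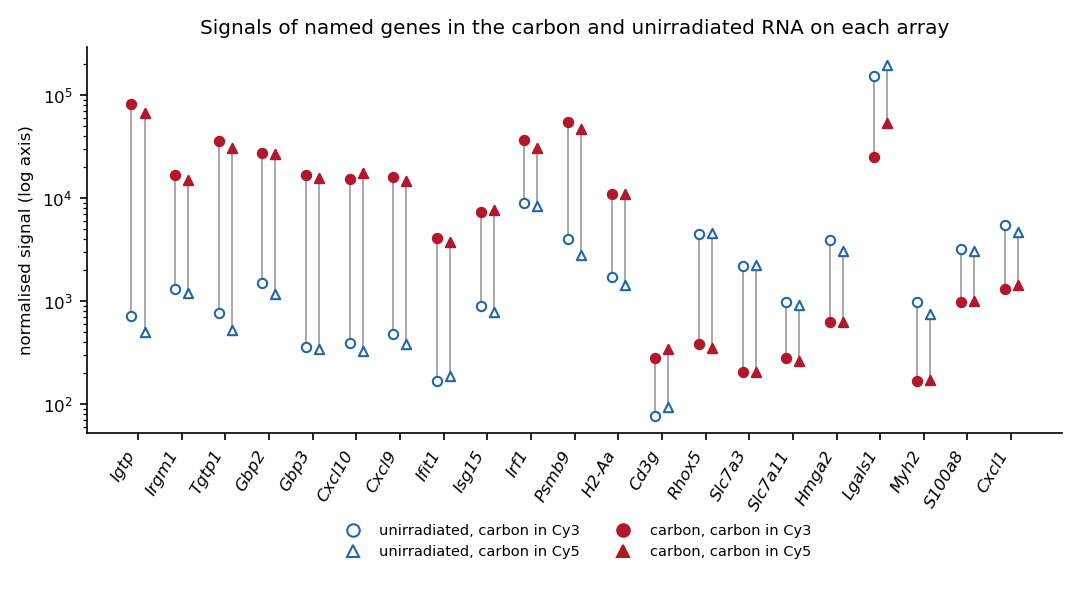
Normalised signals (log axis) of 21 named genes in the unirradiated RNA (open blue) and the carbon RNA (filled red), with circles for the array with carbon in Cy3 and triangles for the one with carbon in Cy5. Igtp ran from 715 and 504 up to 81300 and 66530, and Rhox5 from 4435 and 4521 down to 381 and 345. The genes shown were picked from called ones, so they do not show how often the 2 RNAs differ.

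Of the signalling genes, 10 of 23 were higher and none lower, with a median log2 ratio of 0.74. Stat2 was 2.67 and 2.43 on the 2 arrays and Irf9, its partner in the type I complex, 2.46 and 2.70. Irf7, which drives interferon-alpha transcription, had a log2 ratio of 3.16 ± 0.25 and Irf1, which is switched on by interferon-gamma, one of 1.94 ± 0.12. Batf2 had 4.19 ± 0.024, the largest value of the list. Feedback inhibitors were called as well, with Socs1 at 1.22 (not called with median centring) and Cish at 1.64. Stat3 was split between the orientations at 1.03 and 0.44. The Irf1 promoter held a gamma-activated site, the letters TTC, any 3 bases and GAA, at chr11:53769899-53769957 (plus strand), in capitals here.
Irf1: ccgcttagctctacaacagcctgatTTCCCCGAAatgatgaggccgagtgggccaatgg
That short element was common, in 757 of 10636 windows (7.117%) over all measured genes, 53 of 411 (12.895%) of those called higher and 11 of 120 (9.167%) of those called lower. The site of NF-kB was in 0.226% of all windows and 0.73% of those of higher genes.

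The interferon genes themselves were mostly not detected. Ifng, the type II interferon made by T and NK cells, was above background on neither array in the unirradiated RNA, at 71 and 89, and had 375 and 451 in the carbon RNA, at least 5.18-fold. Of the 7 type I and III interferon genes on the array, 6 were not above background on any array in either RNA, and Ifna1 was above it on 1 array in each, which leaves only a bound on their level. The receptors Ifngr1, at 0.59 and 0.53, and Ifnar1, at 0.15 and 0.33, were not called. Among nucleic acid sensors, 7 of 17 were higher and none lower. The Z-nucleic acid sensor Zbp1 had a log2 ratio of 3.31 ± 0.25, the RNA helicase sensors Ifih1 and Ddx58 had 2.72 ± 0.05 and 1.84 ± 0.53, and the DNA-binding genes Ifi203 and Ifi204 lay at 3.40 and 3.48 and at 1.64 and 1.80 on the 2 arrays. A further probe of Ifih1 gave 0.92, and Ifi204 was not called with median centring. Cgas, the cytosolic DNA sensor, at -0.01 and 0.33, and Sting1, its signalling partner, at 0.25 and 0.45, were not called, nor was Mavs, the adaptor of the RNA sensors, at -0.10 and 0.16.

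Chemokines went both ways. The CXCR3 ligands, which attract activated T cells and NK cells, were higher: Cxcl10 had signals of 390 and 324 in the unirradiated RNA and of 15350 and 17340 in the carbon RNA, a log2 ratio of 5.52 ± 0.31. Cxcl9 went from 476 and 383 to 15980 and 14550, a log2 ratio of 5.16 ± 0.13, and Cxcl11 had 3.44 ± 0.17. Ccl5 had 1.18 on each array and was not called with median centring or over the mean of its probes. The neutrophil attractants Cxcl1, from 5409 and 4621 to 1308 and 1433, and Cxcl3, from 3839 and 3594 to 1205 and 1278, were lower, with log2 ratios of -1.87 ± 0.25 and -1.58 ± 0.13. The other 20 of 26 measured chemokines were not called, and the median of the list was 0.06. Among 25 cytokines, 5 were higher and 3 lower. Il18bp, the decoy that neutralises interleukin 18, had a log2 ratio of 2.51, and the death ligand Tnfsf10 was at least 3.24-fold higher. Il24 had -1.90, and Il1a, an alarm cytokine, -1.73 and -1.34 on the 2 arrays, while Csf3, the neutrophil growth factor, had -1.12 and -1.32. Cxcl3 and Csf3 lost their calls with median centring. The Cxcl10 window at chr5:92349068-92349127 (minus strand) held the interferon-stimulated element.
Cxcl10: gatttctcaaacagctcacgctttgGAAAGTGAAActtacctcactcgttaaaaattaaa

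Antigen presentation was higher in both MHC classes. Of 25 measured class I and peptide-loading genes, 19 were higher and none lower, with a median log2 ratio of 2.44. The class I heavy chains H2-K1, from 31010 and 18830 to 166300 and 125300, and H2-D1, from 20410 and 14670 to 126700 and 97540, had log2 ratios of 2.58 ± 0.22 and 2.68 ± 0.070. A second probe of H2-D1 gave -0.12, and the H2-Q and H2-T genes share sequence with these, so class I members are uncertain one by one. The shared light chain B2m had a log2 ratio of 2.50 ± 0.15. Psmb9 and Psmb8, catalytic subunits of the immunoproteasome that cuts peptides for class I, had 3.92 ± 0.20 and 3.76 ± 0.32, and the peptide transporter Tap1 had 2.80 ± 0.023. The loading chaperones Calr, at 0.43 and -0.10, and Pdia3, at 0.63 and 0.05, were not called, nor were Erap1, Cd1d1, H2-Q8 and H2-T24. Of 13 class II genes, 9 were higher and none lower, with a median of 2.55. Under the 11 alternatives the class II median ran from 1.72 to 2.83 and the class I median from 1.81 to 2.59. Both were lowest over the mean of a gene's probes. H2-Aa went from 1696 and 1424 to 10810 and 10900, a log2 ratio of 2.80 ± 0.19, the invariant chain Cd74 had 2.91 ± 0.14, and Ciita, the master regulator of class II transcription, 3.08 ± 0.14. Rfx5 and Rfxap, constitutive class II factors, lay at 0.56 and 0.53 and at -0.32 and -0.22.

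The called genes of this region sat side by side. In RefSeq order among measured genes, a run of 11 on chromosome 17 was higher without a break: H2-DMa, H2-DMb2, H2-DMb1, Psmb9, Tap1, Psmb8, Tap2, H2-Ab1, H2-Aa, H2-Eb1 and H2-Ea. Their direct neighbours Brd2, at 1.11 and 0.57, and Notch4, at 0.07 and 0.18, were not called. A run of 6 further along held H2-D1 and 5 H2-Q genes. Other runs were 5 Ifi200 genes on chromosome 1 (Ifi207, Ifi204, Ifi203, Ifi202b, Ifi205), 5 and 4 Gbp genes on chromosomes 3 and 5, 4 Apol genes and 4 Ly6 genes on chromosome 15, 4 Trim genes on chromosome 7, 4 H2-T and H2-Bl genes on chromosome 17, and Irgm1, Psme2b, Tgtp1 and Ifi47 on chromosome 11. A run on chromosome 6 (Ephb6, Trpv6, Pip, Sval2) held no gene of the interferon lists. Of the 558 named genes called higher, 148 lay in 55 runs of 2 or more, and of the 160 called lower, 13 lay in 6 runs. Calls made up 3.9% of all measured genes for higher and 1.07% for lower, so these 2 run counts cannot be compared directly. How many runs an even spread of calls would give was not worked out. Psme2b was not called with median centring. Members of such clusters can share sequence that a probe reads.

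**Figure D3:**
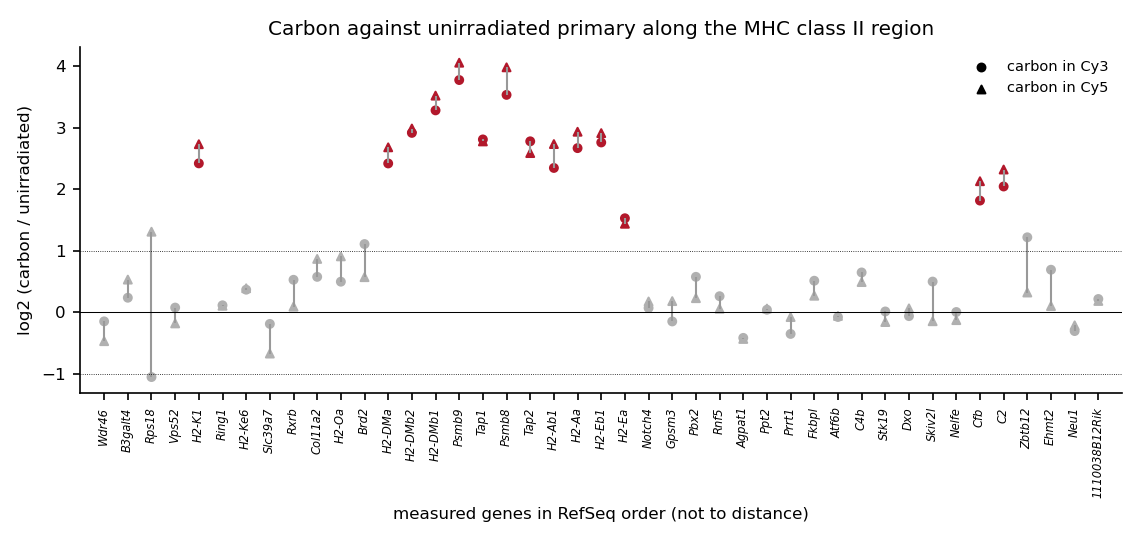
Log2 ratio of carbon over unirradiated for the measured genes around the MHC class II cluster in RefSeq order (evenly spaced, not to distance), with circles for carbon in Cy3 and triangles for carbon in Cy5; red marks a call. The 11 genes from H2-DMa to H2-Ea all lie above 1 on both arrays, with Psmb9 highest at 3.78 and 4.06, while Rps18 lies on opposite sides of 0 in the 2 orientations.

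Of 30 ubiquitin-like, immunoproteasome and related genes, some of which are also in the lists above, 24 were higher and none lower, with a median of 1.89. They included Ubd, a ubiquitin-like tag, at 3.04 ± 0.22, the serpin Serpina3g at 3.49 ± 0.13, and the surface proteins Ly6a at 1.89 and 2.36 and Ly6c1 at 1.82 and 2.38. Among apolipoprotein L and Schlafen genes, 7 of 10 were higher, with a median of 2.49. Apol6, from 181 and 160 to 2666 and 2772, had log2 ratios of 3.88 and 4.12 on the 2 arrays and Apol10a of 3.58 and 4.16, while Slfn5, Slfn4 and Slfn3 were not called. Of 23 complement and coagulation genes, 7 were higher and none lower, with a median of 0.48, and 9 were below 0 on both arrays. Without the filter on dim probes the median was 0.139, and it was 0.248 over the mean of a gene's probes. The 7 were the classical-pathway proteases C1s1 (8.00-fold) and C1ra (1.79 and 2.14), their inhibitor Serping1 (2.77 ± 0.12), C2 (2.19 ± 0.19), Cfb (1.98 ± 0.22), the central component C3 (1.73 ± 0.11) and Cfd. A second probe of C3 gave 0.28, and its call was lost over the mean of probes and with median centring, which also ended those of Ly6a and Ly6c1.

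Some T and NK cell genes were higher, at low signal. Of 26 measured, 12 were higher and 1 was lower, and 13 were not called. Members could be measured through the carbon RNA alone: where both RNAs had to be above background, 11 members were left and 5 were higher. The median log2 ratio was 1.06 over the 26, 0.632 over all 33 without a filter, and 2.46 over the 26 with Agilent's processed signals. Of the 33 on the array, 12 were above background on both arrays in the unirradiated RNA and 25 in the carbon RNA, and their summed signal was 9043 and 9029 against 11248 and 12155. Cd3g, of the T cell receptor complex, was not above background in the unirradiated RNA, at 77 and 94, and had 280 and 339 in the carbon RNA, at least 3.63-fold; Cd3d was at least 3.14-fold higher. Cd8a had a log2 ratio of 1.47 ± 0.15 (not called over the mean of its probes), the cytotoxic granule proteases Gzmb and Gzma 1.78 ± 0.079 and 1.41 ± 0.075, and Nkg7 2.40 ± 0.073. Cd3e, in contrast, had signals of 131 and 101 against 124 and 108, a log2 ratio near 0, and the pan-leukocyte gene Ptprc had 0.13 and -0.16. The T-box factor Eomes was lower, at -1.30 ± 0.14. Of 22 checkpoint and costimulation genes, 4 were higher and none lower: the T cell inhibitory receptor Pdcd1, at least 6.11-fold, its ligand Cd274, at 1.42 ± 0.21, Cd200, at 2.40 ± 0.09, and Ido1, the tryptophan-degrading enzyme, at least 3.86-fold. Pdcd1 and Ido1 were measured through the carbon RNA alone. Where both RNAs had to be above background, 17 members of this list were left, and its median went from 0.474 to 0.33.

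Myeloid markers differed by type. Of 26 macrophage and dendritic cell genes, only Fcgr1, an Fc receptor that interferon-gamma induces, was called higher, at 1.11 ± 0.15 (not with median centring or over its probes' mean), and the median of the list was 0.20. Their summed signal was 70764 and 67822 in the unirradiated RNA and 79949 and 77100 in the carbon RNA. Adgre1 and Csf1r, which define macrophages, had 0.18 and 0.51 and 0.20 and 0.25 on the 2 arrays. Of 4 measured B cell genes none was higher, and Pou2af1, a coactivator in B cells, was lower, at -1.15 and -1.10. Neutrophil genes were lower in 5 of 16 and higher in 1, with a median of -0.93, and 12 of 16 were below 0 on both arrays. S100a8, a subunit of calprotectin, went from 3182 and 3019 to 979 and 989, a log2 ratio of -1.66 ± 0.064, its partner S100a9 had -1.42 ± 0.38 (not called with median centring), and Mmp9, a matrix protease, had -1.48 ± 0.13. Ltf was the member called higher, at 1.89 and 1.88; it is also a secretory epithelial gene. S100a8 and S100a9 are expressed by stressed keratinocytes too, which these data cannot separate from neutrophils. Stfa2l1, a stefin, was the lowest neutrophil gene, at -1.85 ± 0.24. The summed signal of the neutrophil list was 34637 and 39317 in the unirradiated RNA and 23455 and 21154 in the carbon RNA. The part of immune cells in the interferon and MHC values was not tested.

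**Figure D4:**
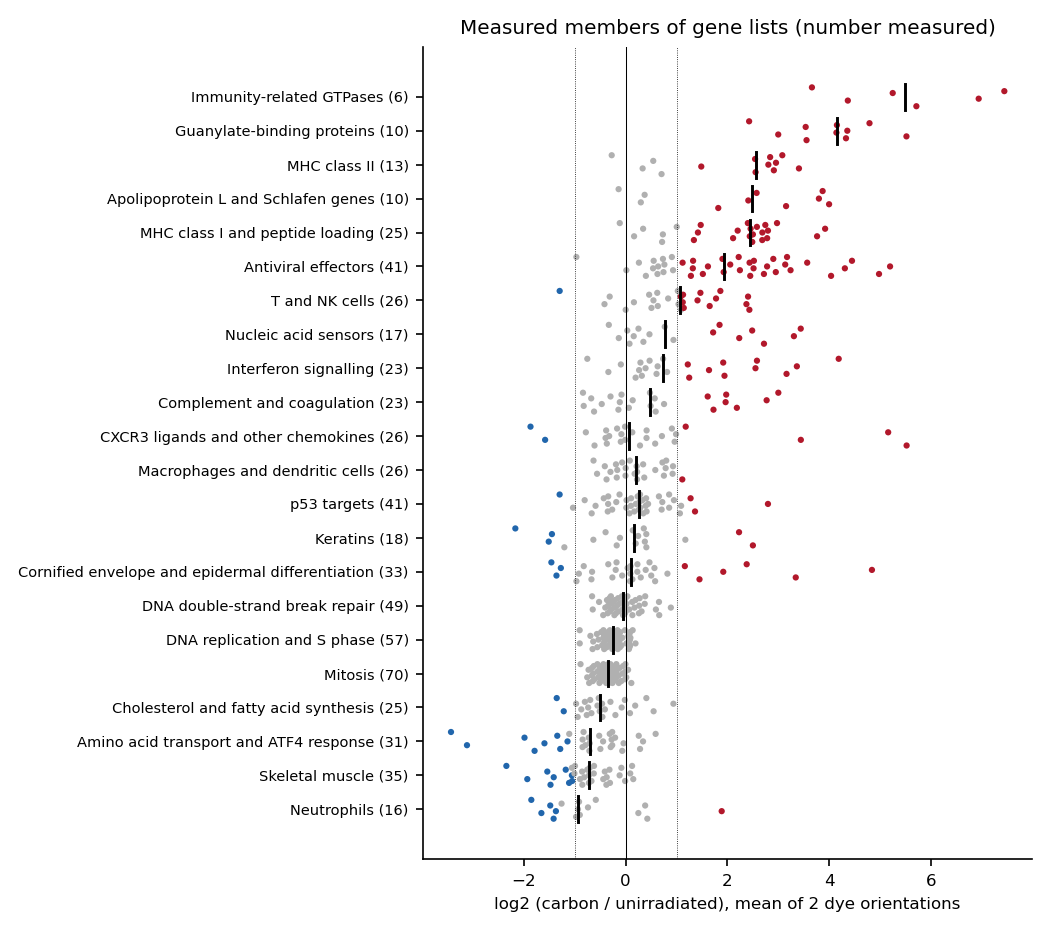
Mean log2 ratio of carbon over unirradiated for each measured member of 22 gene lists, with the number measured in brackets; red and blue points are genes called higher and lower, grey points are not called, and the black bar is the list's median. The medians run from 5.48 for the immunity-related GTPases to -0.93 for the neutrophil genes.

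The gene furthest below the unirradiated tumour was Rhox5, an X-linked homeobox gene that is normally active in the testis and placenta. Its signal was 4435 and 4521 in the unirradiated RNA and 381 and 345 in the carbon RNA, a log2 ratio of -3.63 ± 0.12, or 12.3-fold lower. Of 15 measured germline, oncofetal and imprinted genes, 4 were lower and none higher. Hmga2, a chromatin protein of embryonic and invasive cells, went from 3899 and 3040 to 625 and 629, a log2 ratio of -2.46 ± 0.26, with other probes between -2.18 and -0.36. The imprinted genes H19 and Mest had -1.10 ± 0.027 and -1.11 ± 0.058, and neither was called with median centring. Igf2, the neighbour of H19, had -0.50 and -0.65 and was not called.

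Of 31 measured genes of amino acid transport and of the stress response run by the transcription factor ATF4, 8 were lower and none higher, with a median of -0.71. Slc7a3, a transporter of arginine and lysine, went from 2190 and 2228 to 204 and 206, a log2 ratio of -3.43 ± 0.0083, or 10.8-fold lower. Slc7a11, the cystine importer that feeds glutathione synthesis, went from 966 and 907 to 278 and 263, a log2 ratio of -1.79 ± 0.0073. The secreted carbonic anhydrase Car6 had -3.12 ± 0.18, the mitochondrial folate enzyme Aldh1l2 -1.99 ± 0.079, asparagine synthetase Asns -1.28 ± 0.069, and the hormone Fgf21 -1.34 ± 0.025. Psph, of serine synthesis, and Slc7a5, a leucine importer, were also called, but both, and Asns, lost the call with median centring. Cth, which makes cysteine and was outside the list, had -1.69 ± 0.092. Atf4 itself, at -0.62 and -1.07, was not called. The upstream window of Slc7a11 at chr3:50443647-50443704 (minus strand) held the letters TGATGCAA of the amino acid response element, a motif added after the decreases had been seen.
Slc7a11: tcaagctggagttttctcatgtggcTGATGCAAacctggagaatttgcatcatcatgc
These letters were in 73 of 10636 windows (0.686%), in 4 of 120 (3.333%) of the genes called lower and in 5 of 24 of this list. Of those, Fgf21 and Slc7a11 were called lower, and Nupr1, Slc7a7 and Vldlr were not.

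Among 25 EGF receptor, FGF and Notch pathway genes, 2 were higher and 2 lower (8% each, beside 3.9% and 1.07% of all measured genes), with a median of 0.21. The higher ones were Fgf1, a fibroblast growth factor, at 1.54 ± 0.055, and Fgfr2, a receptor of that family, at 1.25 ± 0.057. The EGF receptor ligands Epgn, from 9339 and 9071 to 2258 and 2222, and Areg, from 6436 and 7609 to 2299 and 2361, had log2 ratios of -2.04 ± 0.013 and -1.59 ± 0.14, and Nrg1, which binds the related ERBB receptors and is in another list, -1.65 ± 0.028. Of the immediate early and NF-kB genes, 3 of 35 were lower and none higher, with a median of -0.11: Ptgs2, the inducible cyclooxygenase, at -1.99 ± 0.013, Fosl1 at -1.14 and -1.30, and Ier3. Among 37 genes of mesenchymal transition and invasion, 5 were lower (13.5%, beside 1.07% of all measured genes), Hmga2, Lgals1, Mmp9, Timp1 and Mmp3. The protease inhibitors Timp3 and Timp2 were the 2 higher ones (5.41%, near the 3.9% of all measured genes). Lgals1, a secreted galectin, went from 153300 and 196500 to 25020 and 53160, and its ratio of -2.25 ± 0.52 varied more between orientations than the median gene's. The calls of Lgals1, Fosl1, Ier3, Timp1, Timp2 and Mmp3 were lost under median centring. Vim, the mesenchymal filament, had 0.18 and 0.44. Other genes among the 30 furthest below were Ambp, Procr, the protein C receptor, Ero1a, an oxidase of the endoplasmic reticulum, Krt23, Tspan12, Rap1gap, Aldh1a2, Avil, Ces1g, Fam160a1, Msx3 and Teddm3, and Arl4d, whose second probe gave 0.06 and which was not called over the mean of its probes.

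Skeletal muscle genes were lower in 9 of 35 and higher in none, with a median of -0.72, and 31 of 35 were below 0 on both arrays. Myh2, a fast myosin, went from 980 and 744 to 168 and 169, a log2 ratio of -2.34 ± 0.29. Ckm, the muscle creatine kinase, had -1.54 ± 0.028 and the actin Acta1 -1.11 ± 0.11, which was not called with median centring. Myh1 had -1.93, with other probes at -0.37 and -0.27, and was not called over the mean of its probes. The summed signal of the 36 genes on the array was 111053 and 112989 in the unirradiated RNA and 74870 and 71497 in the carbon RNA. The tumour grew in a leg, and how much muscle each dissection held is not given in the sources used here. Of 32 fibroblast and matrix genes none was called, and of 19 endothelial genes only Cldn5, a tight junction protein of vessels, was, at -1.30 and -1.37, and its call too was lost with median centring.

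Epithelial genes shifted one by one. The basal keratins Krt5, at -0.34 and 0.73, and Krt14, at -0.53 and 1.35, lay on opposite sides of 0 in the 2 orientations and gave no direction. Of 18 measured keratins, Krt79, at 2.50 ± 0.029, and Krt7, at 2.23 ± 0.045, were higher, and Krt23, at -2.17 ± 0.093, Krt16, at -1.51 ± 0.35, and Krt19, at -1.45, were lower. Of 33 cornified envelope genes 6 were higher and 3 lower. Alox12e, an epidermal lipoxygenase, went from 1107 and 816 to 27950 and 26470, a log2 ratio of 4.84 ± 0.26. The calmodulin-like gene Calml3 had 3.34 ± 0.032, the envelope precursors Sprr2d and Sprr2f 2.38 ± 0.15 and 1.92 ± 0.25, and Crct1 1.45 ± 0.011, while Sprr1b had -1.36 ± 0.071. Krt16, Krt19 and Sprr1b were not called with median centring. Of 13 airway and secretory genes 5 were higher and 1, Ambp, was lower, at -2.55 and -2.45. Cyp2f2, a cytochrome P450 of lung club cells, went from 541 and 486 to 11370 and 12440, a log2 ratio of 4.54 ± 0.20, and the secreted protein Wfdc18 had 4.45 ± 0.029. The club cell and alveolar markers Scgb1a1 and Sftpc were not measured here. Adhesion genes were mostly not called, with 3 of 36 higher (8.33%, beside 3.9% of all measured genes). Among these was the epithelial factor Ehf at 2.04 ± 0.12, with other probes at 0.71 and 1.07. Cdh1, E-cadherin, was not called, at 0.95 and 0.66.

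Cell cycle genes showed small shifts. None of 70 mitosis genes was called, but 62 were below 0 on both arrays and none was above 0 on both, with a median of -0.34. The share of all measured genes below 0 on both arrays was not worked out, and their lower quartile was -0.21. The proliferation marker Mki67 had signals of 19690 and 21450 in the unirradiated RNA and of 17820 and 17870 in the carbon RNA, a log2 ratio of -0.20 ± 0.084, and cyclin B1, Ccnb1, had -0.61 ± 0.10. None of 57 DNA replication genes was called, with a median of -0.25 and 37 below 0 on both arrays; Rrm2, the ribonucleotide reductase subunit, had -1.05 and -0.75. Repair genes for broken DNA gave a median of -0.06 with none of 49 called. Among 41 p53 targets, 3 were higher (7.32%) and 1 was lower (2.44%), beside 3.9% and 1.07% of all measured genes, with a median of 0.26. Higher were Tap1, already counted above, the antioxidant sestrin Sesn1, at 1.36 ± 0.11, and Trp53inp1, at 1.28 ± 0.04, and the stress gene Gadd45a was lower, at -1.30 ± 0.062, and with median centring only Tap1 of these 4 kept its call. Cdkn1a, the p21 cell cycle inhibitor, had signals of 8763 and 8752 against 10130 and 9573, a log2 ratio of 0.17 ± 0.056, and Mdm2, the p53 inhibitor, had -0.35 ± 0.098. The sample was taken 1 week after the dose.

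Cholesterol and fatty acid synthesis was lower in 2 of 25 genes, the sterol enzymes Msmo1 at -1.35 ± 0.21 and Lss at -1.22 ± 0.26, with a median of -0.51 and 18 of 25 below 0 on both arrays. Of 33 genes of the NRF2 antioxidant response, 5 were higher: the glutathione transferases Gsta3, at 2.64 ± 0.092, and Gstm1, at 1.55 ± 0.03, catalase Cat, at 1.39 ± 0.14, the quinone reductase Nqo1, at 1.32 and 1.42, and Aox1. Median centring ended the calls of Msmo1, Lss, Gstm1, Cat, Nqo1, Aox1 and Ddit4, and that of Lss was also lost over the mean of its probes. Of 37 hypoxia and glycolysis genes, 1 was higher and 1, Ero1a, was lower (2.7% each), with a median of -0.08. The higher one was Ddit4, an inhibitor of the growth kinase complex mTORC1, at 1.90 ± 0.014. Aldh1a1, a retinaldehyde dehydrogenase, had 4.09 ± 0.21, and Bbox1, the last enzyme of carnitine synthesis, 3.93 ± 0.15. Of 23 Wnt pathway genes, 3 were higher (13%) and 1 was lower (4.35%), with a median of 0.14. Among them Sfrp1, a secreted antagonist, had 2.59 ± 0.12 and Wnt3a -1.64 ± 0.014. Of 28 TGF-beta and BMP pathway genes, 2 were higher (7.14%) and none lower, with a median of 0.06. The activin subunit Inhbb, 1 of these 2, had 2.10 ± 0.14. None of 34 ribosomal protein genes or 36 respiratory chain genes was called. The ribosomal median was -0.28 with carbon in Cy3 and 0.98 with carbon in Cy5, so these bright genes followed the dye and gave no direction.

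Beside the gamma-irradiated tumour, most genes of the interferon-inducible GTPase families were higher after carbon. So were 5 of 9 apolipoprotein L and Schlafen genes, while most members of the other interferon lists were not called. The doses differed in kind and size, 5 Gy of carbon ions against 8 Gy of gamma rays, and 2 further arrays compared these RNAs directly, with no unirradiated RNA on them. The carbon RNA is the same as on the arrays above, so the direct ratios are not a second sample of it. Of 15038 genes measured there, 133 were higher in the carbon RNA (0.884%) and 24 lower (0.16%). All 6 immunity-related GTPases and 9 of 10 guanylate-binding proteins were higher, with medians of 2.31 and 2.17. Called higher on the direct arrays were 13 of 41 antiviral effectors (median 0.74), 5 of 9 apolipoprotein L and Schlafen genes (1.21), 5 of 13 MHC class II genes (0.95), 3 of 23 interferon signalling genes (0.40) and 3 of 17 nucleic acid sensors (0.26), and none of these lists had a lower gene. Igtp had direct ratios of 2.93 and 2.98 on the 2 arrays, Iigp1 of 3.16 and 2.96, Apol10a of 2.83 and 2.98, Apol6 of 2.86 and 2.95, and Gbp8 of 2.94 and 2.80, while the mean for Gbp6 was 2.87. Gbp9, Sectm1b, Tgtp1 and Batf2 complete the 10 furthest up. Against the unirradiated tumour, gamma gave 348 higher genes (2.23%) and 195 lower (1.25%) of 15579. That comparison shares the unirradiated RNA with the carbon one but was run on another slide. Its values are set beside the carbon ones only as levels. Igtp had a log2 ratio over unirradiated of 4.77 after gamma and 6.94 after carbon. Apol6 had a log2 ratio over unirradiated of 1.24 after gamma and of 4, that is 16-fold, after carbon. In contrast, none of 24 MHC class I genes was called on the direct arrays, and their median was 0.51, with B2m at 0.01 and 0.38.

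**Figure D5:**
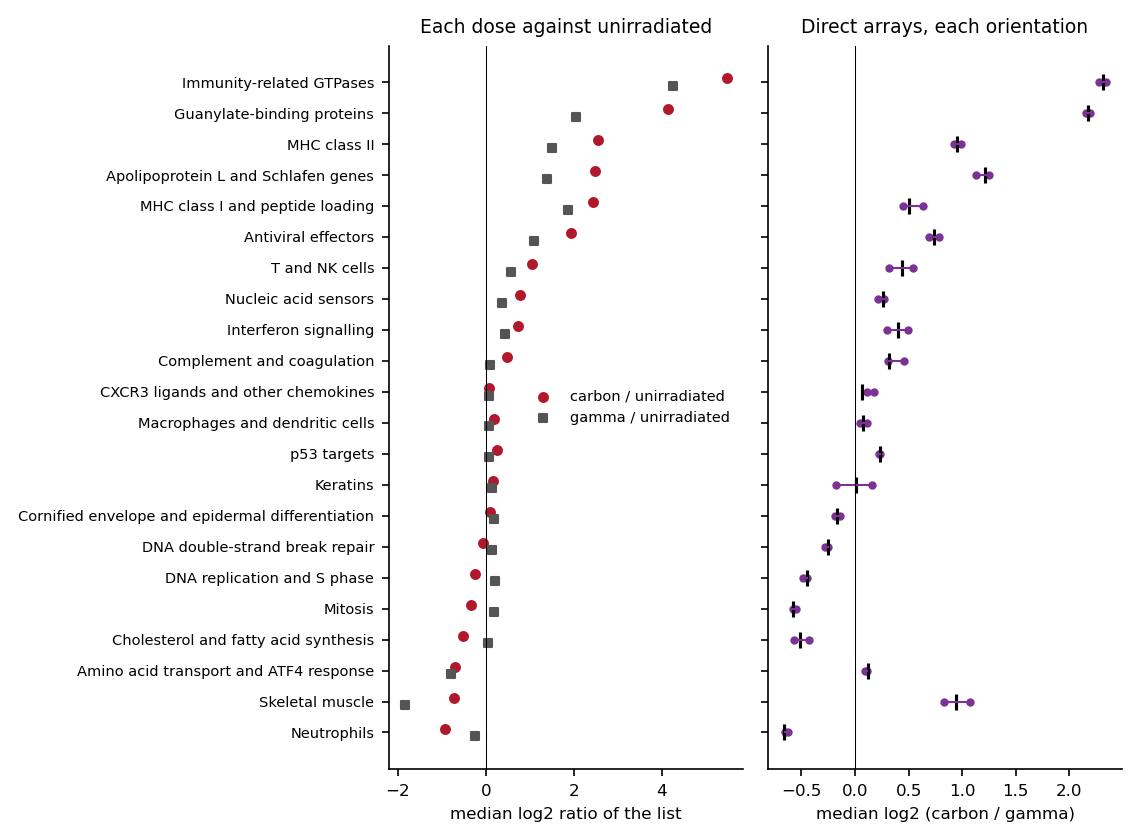
Left, median log2 ratio over unirradiated of 22 gene lists after carbon ions (red circles) and after gamma rays (grey squares), which share the unirradiated RNA; right, median log2 ratio of carbon over gamma on the direct arrays in each dye orientation (purple points, joined) with the median of the gene means (black mark). The immunity-related GTPases stand at 5.48 after carbon and 4.26 after gamma, and the skeletal muscle list at -0.72 and -1.84.

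Genes lower in the carbon than in the gamma RNA were fewer. The 10 furthest down among genes called against the unirradiated tumour were Crct1, with direct ratios of -1.62 and -1.54, Cstdc6, S100a9, S100a8, Sprr2f, Gsdmc, Sprr2d, Gsdmc3, Il24 and Serpinb2. S100a8 had -1.53 and -1.46, and its ratio over unirradiated was -1.66 after carbon and -0.16 after gamma. Crct1, Sprr2d and Sprr2f were above the unirradiated level after both doses, Sprr2d at 2.38 after carbon and 3.51 after gamma. Serpinb2 and the gasdermin genes Gsdmc and Gsdmc3 were called lower after carbon, at -1.30, -1.18 and -1.19, and had 0.02, 0.34 and 0.06 after gamma. With median centring none of these 3 genes was called lower, and S100a9 was not either. Muscle genes went the other way, with 16 of 33 higher in the carbon than in the gamma RNA and a direct median of 0.95. The amino acid and ATF4 list had a direct median of 0.12 with none of 30 called, and Slc7a11 had -0.05 and -0.03. Mitosis genes had a direct median of -0.58, with none of 70 called. Neutrophil genes had -0.66, with 2 of 16 lower.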

How the data were processed

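RNA of laser-dissected NR-S1 cells was hybridised to two-colour Agilent arrays of design 014868, which per the file headers were scanned and quantified with Feature Extraction 9.1.3.1 (protocol GE2-v5_91_0806). In the deposited scanner files the intensity columns hold each spot's mean brightness and its median local background in Cy5 and Cy3, not normalised. The authors' deposited table holds log10 ratios of Cy5 over Cy3, equal to those of the scanner files within 0.005, with a median of 0; per the file headers these come from processed signals corrected for background and dye bias. The genome build is not given in the sources used here.

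Intensities were corrected by normexp with an offset of 50, which draws ratios of dim spots toward 0, and normalised within each array by loess in limma 3.58.1 under R 4.3.3, with control spots and outlier-flagged spots at weight 0. Ratios were turned so that carbon was on top, by the dyes in the labels. Spots of a probe were averaged, and the brightest probe stood for a gene. Probes were named through a RefSeq table of GRCm38.p6 (22951 by accession, 6658 by symbol, 3109 by older symbol, 8455 by the file's name), used for names and gene order. Signals are those of each channel after normalisation. Sums, counts and motif searches used Python 3.11.15 with pandas 2.3.3.

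Each group was 1 RNA, so no test was run, and the size rule (log2 ratio of at least 1 in size on both arrays) and lists replaced it. The calling step was run on simulated dye swaps with planted changes past the size rule. These had less spread between orientations than the real arrays and none between animals, so they check the step and not the calls. A gene not above background in 1 RNA has a fold given as a lower bound. Named genes were the 30 highest and 30 lowest, the 10 highest and 10 lowest called genes on the direct carbon over gamma arrays, and members of 46 lists. 1 gene of the interferon signalling list is not reported here. The members and lists were chosen with earlier results of these data known. Few arrays limit the precision. For 11 alternatives see the closing section.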

Additional observations from a re-analysis of the deposited data

Results flagged for a closer look

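In 2 gene lists the carbon and the gamma medians lay on opposite sides of the unirradiated level on every array, each past a minimum size. The flag also asked for a minimum number of members, and the difference was not tested. Other lists had mean-based medians of opposite sign without being flagged. Examples are the adipocyte list (0.239 after carbon, -0.442 after gamma) and cholesterol and fatty acid synthesis (-0.509 and 0.0556). The mitosis list had a median log2 ratio of -0.342 after carbon (-0.30 and -0.363 on the 2 arrays) and of 0.192 after gamma (0.244 and 0.183). The DNA replication list had -0.252 after carbon (-0.21 and -0.287) and 0.209 after gamma (0.213 and 0.183). Both doses share the unirradiated RNA, and no member of either list was past 2-fold on both arrays after either dose. The carbon and the gamma arrays lay on different slides, so slide and dose cannot be told apart in these side-by-side values.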

How the results depend on the processing

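No paired analysis was possible because each group was 1 RNA and its only repeat was the dye swap; a slide block could not be fitted, since both arrays lay on 1 slide. Of 253 named genes that were called, none changed sign under any of the 11 alternatives run. In several of these no sign could change, because a call already asks for the same sign on both arrays. They were each orientation alone, the stricter size and the 2 changes of the background filter, which all reuse the main ratios. Agilent's processed signals and the authors' table gave nearly the same counts, so they are hardly separate checks. Of the 253 genes, 183 kept their call under median centring, 235 over the mean of probes and 170 at a log2 ratio of 1.5. Named genes that were not called were outside this check. Of 121 counts recomputed, 94 stayed within 1.5 times the main count. Genes higher numbered 610, against 935 with plain background subtraction, 939 with Agilent's processed signals, 937 with the authors' table and 316 at a log2 ratio of 1.5. Genes lower numbered 168, against 290 with normexp offset 0, 358 with plain subtraction, 59 with median centring, 454 with processed signals, 453 with the authors' table, 46 at a log2 ratio of 1.5 and 275 with carbon in Cy3 alone. T and NK cell genes higher numbered 12, against 20 with plain subtraction, 19 with processed signals and with the authors' table, 5 where both RNAs had to be above background and 6 at 1.5. Neutrophil genes lower numbered 5, against 11 with offset 0, plain subtraction, processed signals and the authors' table, and 2 at 1.5. Muscle genes lower numbered 9, against 4 with median centring, 14 with processed signals and the authors' table, and 3 at 1.5. Amino acid and ATF4 genes lower numbered 8, against 5 with median centring and 4 at 1.5. Fewer genes at 1.5 follow from the stricter size. Elsewhere the cause was not tested. The median of the heat shock list, 0.0387, was -0.0524 with median centring, -0.00292 with processed signals, -0.00291 with the authors' table and -0.0777 over all probes. That of the NRF2 list, 0.0672, was -0.0338 with median centring and -0.0135 with processed signals and with the authors' table. The immunity-related GTPase median ran from 4.81 to 5.82 and the mitosis median from -0.421 to -0.30.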

Other observations

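Of 40 measured cell death genes, 3 were higher and 2 lower, beside 3.9% and 1.07% of all measured genes, with a median log2 ratio of 0.30. Casp12, an inflammatory-group caspase, had signals of 1069 and 1029 in the unirradiated RNA and of 4180 and 4412 in the carbon RNA, a log2 ratio of 2.03 ± 0.094. Casp1, which matures interleukin 18 and interleukin 1 beta, had 1.55 and 1.26 on the 2 arrays, and Il18 itself had 1.25 ± 0.18. Ripk3, the kinase that starts necroptosis, went from 14360 and 14060 to 4171 and 4588, a log2 ratio of -1.70 ± 0.12, and Gsdmc was the other lower gene. Casp1, Il18, Ripk3 and Gsdmc were not called with median centring.

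Some called genes lay outside the interferon lists. A run on chromosome 6 held Trpv6, an epithelial calcium channel, from 118 and 119 to 1250 and 1226, with a log2 ratio of 3.38 ± 0.027, and Pip, a secretory protein, at least 9.79-fold higher, although another probe of Pip gave 0.08. The phosphatase-related gene Plppr4 had 3.85 ± 0.14. These genes were also above the unirradiated level after gamma rays, Trpv6 at 2.75 and Plppr4 at 2.85, beside the same unirradiated RNA. Lmnb1, of the nuclear lamina, had 2.05 and 1.10 on the 2 arrays, a spread wider than the median gene's.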
